A study of Homo sapiens with 6 samples.

Results

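The interleukin 1 family was followed as 10 genes of ligands, receptor chains and inhibitors, IL1A, IL1B, IL18, IL33, IL1RN, IL18BP, IL1R1, IL1RAP, IL1R2 and IL1RL1. They were taken by symbol from a table of 23710 genes, and all 10 symbols were in it. The cells were THP-1, a human monocytic leukaemia line kept in serum-containing medium, and the labels mention no agent that differentiates it into macrophages. One group received 10 uM mebendazole, a benzimidazole drug against worms that binds tubulin, and the other received the vehicle DMSO, each for 6 h. RNA was sequenced from 3 libraries per group, numbered as 3 sample pairs. Nothing says that the pairs were separate cultures, and the spread behind the p-values is that between these libraries, which may be technical.

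Interleukin 1 alpha (IL1A) and interleukin 1 beta (IL1B) bind the receptor IL1R1, which then takes up the accessory chain IL1RAP and signals through the adaptor MYD88 and IRAK kinases to NF-kB, a family of inflammatory transcription factors. The receptor antagonist IL1RN occupies IL1R1 without signalling, and the decoy receptor IL1R2 binds the ligands but lacks the signalling domain. Interleukin 33 (IL33) uses IL1RL1 with the same accessory chain, whereas interleukin 18 (IL18) uses IL18R1 with IL18RAP and is held by the soluble protein IL18BP. Monocytes are a main source of interleukin 1 beta, and both it and interleukin 18 are made as precursors that caspase 1 cleaves in inflammasomes. Messenger RNA alone was measured here, not protein, cleavage or secretion.

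Library totals ranged from 13420558 to 15727667 counts. Of 13591 genes that passed the filter on low counts, 82.3% were called changed (Benjamini-Hochberg adjusted p under 0.05, edgeR's quasi-likelihood test), 40.6% as higher with mebendazole and 41.7% as lower, and 15.5% were called higher by 2-fold or more. In 82.4% of tested genes the groups did not overlap. The monocyte markers CD14, CD33, LYZ, CSF1R, ITGAM, CD68, FCGR1A, CD4, MPO and MNDA all had reads, and their summed level was 1848 to 1936 CPM in DMSO and 1385 to 1438 CPM with mebendazole, with 7 of 10 called lower and 1 higher. Of those called lower, 4 were lower by 2-fold or more, with the largest fall in MNDA, from 129 to 2.73 CPM. Summed markers of T, B, NK, mast, endothelial, epithelial and fibroblast cells lay between 0.0767 and 6.44 CPM per list in every library, but several of these sums were higher with mebendazole. The T cell list lay between 0.411 and 0.657 CPM in DMSO and between 4.49 and 6.44 CPM with mebendazole, through CD8A (16 and 212 reads), while CD3D, CD3E and CD3G had 0 reads with mebendazole. The NK list lay between 0.823 and 1.51 CPM in DMSO and between 4.32 and 6.14 CPM with mebendazole, where NCAM1 was called higher (3.90-fold), and the mast cell list between 0.949 and 1.31 CPM and between 2.07 and 3.33 CPM, where TPSB2 was called higher (5.24-fold). The endothelial list lay between 0.592 and 1.02 CPM and between 1.42 and 2.13 CPM. The part of these shifts in the results was not tested. In bulk RNA, fewer cells with a transcript and less transcript per cell cannot be told apart.

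Most members of the family were higher with mebendazole. Of the 10 members, 9 passed the filter, 8 were called higher, each by more than 2-fold, and 1, IL18BP, was called lower. Over all tested genes, 82.3% were called, 40.6% as higher and 15.5% as higher by 2-fold or more. IL1RL1 had no read. IL1B became the most abundant member, IL33 went from almost no reads to 1093, and the signalling receptor IL1R1 and its accessory chain IL1RAP rose as well. IL33, IL1A and IL1R2 had under 10 reads in at least 1 DMSO library and passed the filter through the mebendazole libraries, so a difference was built into their selection. Of the other 6 tested members, 5 were called higher and 1 lower. Fold changes are from the edgeR model, SE is the standard error implied by its test, and CPM are counts scaled to a common library size with edgeR's TMM factors.

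**Figure D1:**
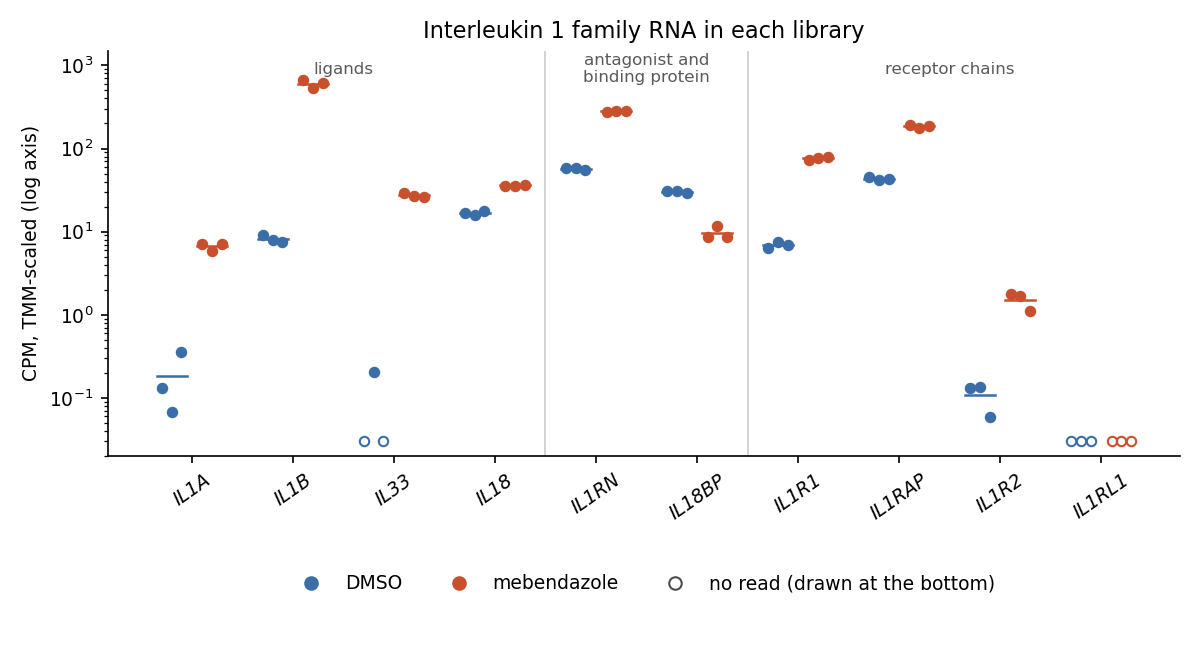
Level of each of the 10 members in every library, in TMM-scaled CPM on a log axis, with DMSO in blue and mebendazole in orange (n = 3 per group). Lines are means, drawn where every library had a read. The 8 members called higher have all mebendazole points above all DMSO points, IL18BP has the reverse, and IL1RL1 has no read. The groups did not overlap in 82.4% of all tested genes.

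Short-lived cytokine mRNAs often carry the AU-rich pentamer ATTTA (written in DNA letters) in the 3′ UTR, where decay factors bind. In the longest coding transcript of each member in GENCODE release 29 (build GRCh38), the 3′ UTR of IL1B held 6 pentamers in 610 bases, or 9.84 per kb, a density that 1.09% of the 12098 tested genes with an annotated 3′ UTR reached. IL1A held 5 in 1152 bases (4.34 per kb, reached by 12.5% of those genes). IL1R2 held 1 in only 152 bases (6.58 per kb, reached by 3.80%), and IL33, with the largest rise, held 4 in 1815 bases (2.20 per kb, reached by 39.8%). IL18BP held 4 in 2108 bases (1.90 per kb), against a median of 1.64 per kb over those genes. IL18 and IL1RN held 0. The 30-base stretches with the most pentamers are shown for the ligands IL1B and IL1A and for IL18BP, the member that fell, with the pentamers in capitals.
IL1B 3′ UTR, chr2:112829994-112830023, minus strand: gcttccctATTTATTTATTTAtttgtttgt
IL1A 3′ UTR, chr2:112774423-112774452, minus strand: ATTTAtatatgtATTTAtaaatatATTTAa
IL18BP 3′ UTR, chr11:72002882-72002911, plus strand: ctttATTTAcaagtaataacATTTAgaaaa
Adjoining pentamers overlap in IL1B and lie apart in IL1A and IL18BP. A match of letters is a description, not a measured binding site.

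Upstream sequence was read for 9 of the 10 members from RefSeq (GRCh38.p14), as 250 bases before each of 21 annotated starts. For the ligands with the largest changes, the part that precedes every coding-transcript exon of GENCODE is shown for the first listed start, with capitals for any match, on either strand, to the motifs searched.
IL1B upstream, chr2:112836904-112837029, minus strand: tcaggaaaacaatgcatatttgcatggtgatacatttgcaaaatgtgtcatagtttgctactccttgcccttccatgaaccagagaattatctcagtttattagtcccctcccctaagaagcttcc
IL1A upstream, chr2:112784591-112784743, minus strand: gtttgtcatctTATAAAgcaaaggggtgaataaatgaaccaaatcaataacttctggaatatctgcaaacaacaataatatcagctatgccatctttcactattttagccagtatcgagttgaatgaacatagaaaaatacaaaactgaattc
IL33 upstream, chr9:6214899-6215148, plus strand: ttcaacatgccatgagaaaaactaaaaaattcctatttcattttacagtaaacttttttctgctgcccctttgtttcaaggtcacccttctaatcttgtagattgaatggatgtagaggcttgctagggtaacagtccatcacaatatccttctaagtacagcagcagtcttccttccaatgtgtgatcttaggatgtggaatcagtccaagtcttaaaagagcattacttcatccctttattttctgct
The motifs were kappaB, AP-1 (TGACTCA and its reverse complement), PU.1 (GAGGAA), the promoter box TATAAA and CRE, the cyclic AMP response element (TGACGTCA). The capitals in IL1A are a match to TATAAA, which begins at position -239 from the start. The AP-1 letters occurred in 3 of the 21 windows, in IL1A and IL1RN, against 4.20% of all 35116 RefSeq windows of that length, and overlapping windows of a gene share a match. The PU.1 letters were in 8 windows of 4 members (23.6% of all windows) and TATAAA in 5 windows of 5 members (10.7% of all windows). The IL18BP windows lie wholly within coding-transcript exons of GENCODE, and some of them overlap and share a PU.1 match. The letters of kappaB (5.21% of all windows) and CRE (1.65%) were in 0 of these 21 windows. The AP-1 letters nearest to a first listed start are shown in capitals for the genes that have them.
IL1A AP-1 letters, chr2:112784494-112784523, minus strand: acaaaaggcgaagaagacTGACTCAggctt
IL1RN AP-1 letters, chr2:113117737-113117766, plus strand: ttctgctagccTGAGTCAccctcctggaaa
They begin at position -12 from the IL1A start and at position -223 from the first listed IL1RN start. The IL1A letters lie inside a coding-transcript exon of GENCODE, and the IL1RN letters lie before any such exon.

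Among the ligands, IL1B, whose pentamers overlap in the stretch printed here, measured 9.07, 8.0 and 7.52 CPM in the DMSO libraries and 658, 540 and 608 CPM in the mebendazole libraries. The lowest mebendazole library stood far above the highest DMSO library. The log2 fold change was 6.2 (SE 0.05, adjusted p = 4.97e-72 in edgeR, n = 3 per group), and 68 of 13591 genes, 0.5%, had a larger rise. In DMSO the IL1B level was at the 28.2 percentile of tested genes, and with mebendazole at the 98.2 percentile.

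IL1A, a ligand that damaged cells also release, stayed much scarcer. It had 2, 1 and 6 reads in DMSO and 100, 77 and 90 with mebendazole, or 0.184 ± 0.150 and 6.69 ± 0.680 CPM (mean ± SD, n = 3). The groups did not overlap, and the log2 fold change was 5.07 (SE 0.29, adjusted p = 5.06e-25 in edgeR). IL1A passed the filter through the mebendazole libraries. With so few control reads, the ratio of summed counts, 35, had a 95% counting interval of 18.1 to 77.3.

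IL33, an alarmin best known from epithelium and endothelium, was nearly undetected in DMSO, with 0, 3 and 0 reads. Mebendazole libraries held 411, 352 and 330 reads, or 27.4 ± 1.61 CPM. The ratio of summed counts was 429, with a 95% counting interval of 147 to 2085, so its size is poorly bounded although the groups are far apart (adjusted p = 1.24e-42 in edgeR, n = 3 per group). All reads in DMSO came from replicate 2, and IL33 passed the filter through the mebendazole libraries. Among markers of the cell types that usually make IL33, KRT5 had 0 reads in every library, CDH5 had 1 read in DMSO and 0 with mebendazole, and EPCAM had 7 and 1. CDH1 had 14 and 5 reads, CLDN5 3 and 30, and VWF 34 and 40.

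IL18 changed least among the ligands. It measured 16.6, 15.7 and 17.8 CPM in DMSO and 35.8, 35.7 and 36.6 CPM with mebendazole. The groups were separate, with a 2.16-fold rise (log2 fold change 1.11, SE 0.07, adjusted p = 8.28e-23 in edgeR). IL18 was 64.3% to 69.3% of the summed CPM of the 4 ligands in the DMSO libraries, and IL1B 29.4% to 35.2%. With mebendazole, IL1B was 88.7% to 90.1% and IL18 4.90% to 5.86%, while the sum went from between 24.0 and 25.8 CPM to between 609 and 730 CPM.

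The inhibitors moved in opposite directions. IL1RN measured 58.1, 58.4 and 55.2 CPM in DMSO and 279, 283 and 283 CPM with mebendazole, with no overlap. Its rise was 4.92-fold (log2 fold change 2.30, SE 0.04, adjusted p = 1.33e-53 in edgeR). IL1RN has starts for a secreted form and for forms kept inside the cell, which a count per gene does not separate.

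IL18BP was the member that fell. Its values were 30.6, 30.7 and 28.8 CPM in DMSO and 8.57, 11.7 and 8.66 CPM with mebendazole, again without overlap. The level was 3.12-fold lower (log2 fold change -1.64, SE 0.09, adjusted p = 6.59e-27 in edgeR). In RefSeq the gene overlaps NUMA1, a spindle protein gene, which lay at 142 CPM in DMSO and 177 CPM with mebendazole (log2 fold change 0.32). Reads of overlapping genes may have been assigned to either, and the part of this in the IL18BP value was not tested.

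Of the receptor chains, IL1R1 measured 6.31, 7.46 and 7.0 CPM in DMSO and 72.5, 76.3 and 80.0 CPM with mebendazole. The rise was 11-fold with clearly separate groups (log2 fold change 3.46, SE 0.07, adjusted p = 2.70e-49 in edgeR). IL1RAP, which IL1R1 and IL1RL1 share, was higher at the outset, at 45.3, 42.3 and 42.9 CPM, and reached 193, 178 and 184 CPM. That is 4.26-fold (log2 fold change 2.09, SE 0.04, adjusted p = 5.21e-49 in edgeR), without overlap.

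The decoy IL1R2 rose from very few reads and passed the filter through the mebendazole libraries. It had 2, 2 and 1 reads in DMSO and 25, 22 and 14 with mebendazole, or 0.109 ± 0.0432 and 1.52 ± 0.365 CPM. The groups did not overlap (log2 fold change 3.71, SE 0.49, adjusted p = 3.79e-10 in edgeR, n = 3 per group), and the ratio of summed counts, 14.4, had a 95% counting interval of 5.84 to 45.9. IL1RL1, the receptor of interleukin 33, had 0 reads in all 6 libraries, which allows a level of up to 0.0639 CPM in DMSO and 0.0753 CPM with mebendazole (3 counts per group). Counting intervals and these limits cover counting error only.

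**Figure D2:**
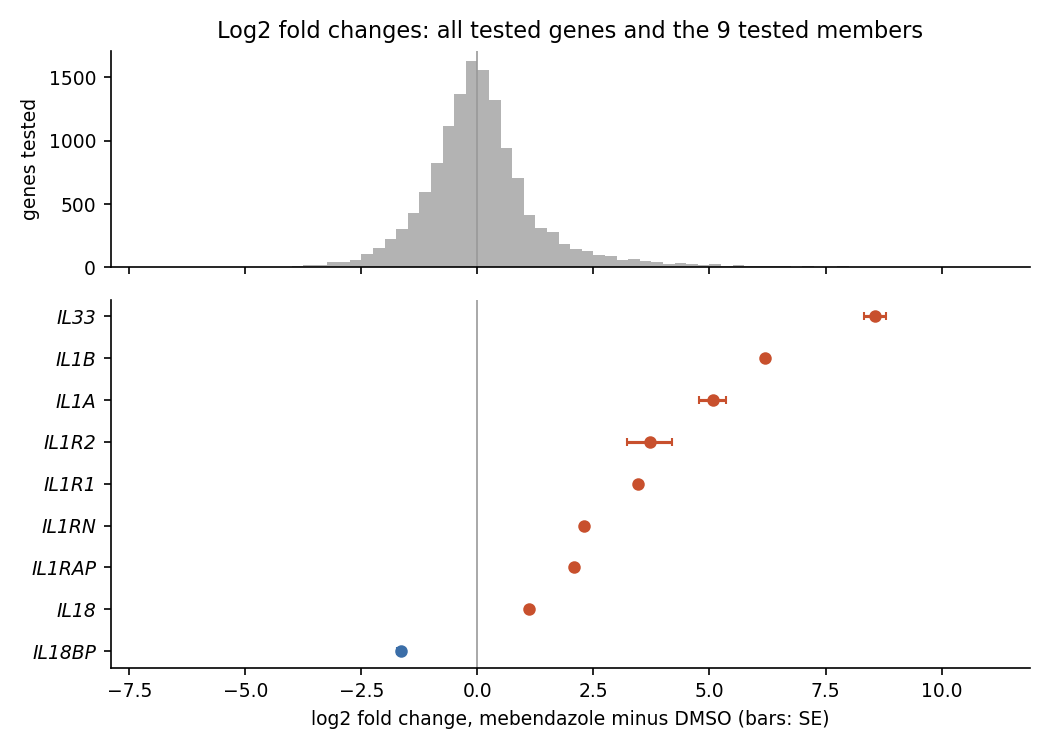
Top, distribution of log2 fold changes (mebendazole minus DMSO) over 13591 tested genes, as a histogram. Bottom, log2 fold changes of the 9 tested members with SE bars, from 8.56 for IL33 to -1.64 for IL18BP, where IL1R2 and IL1A have the widest bars.

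Per kb of the longest annotated coding transcript, IL1RN was the most abundant member in DMSO (29.8 ± 0.927 CPM per kb), followed by IL18 (14.5 ± 0.887), IL1RAP (8.04 ± 0.300), IL18BP (7.36 ± 0.264), IL1B (5.03 ± 0.485) and IL1R1 (1.35 ± 0.112). IL1A, IL1R2 and IL33, all below 0.1 CPM per kb on average, overlapped each other. The first 6 in this order did not overlap between neighbours. With mebendazole, IL1B came first at 369 ± 36.5 CPM per kb, then IL1RN at 147 ± 1.37, IL1RAP at 34.2 ± 1.39, IL18 at 31.4 ± 0.439, IL1R1 at 14.8 ± 0.734 and IL33 at 10.4 ± 0.608. IL1A (3.15 ± 0.320) and IL18BP (2.37 ± 0.442) overlapped, and IL1R2 was lowest of those with reads at 0.963 ± 0.231. IL1B thus moved from the fifth place to the first, and IL18BP from the fourth to the eighth.

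Ratios of reads within a library do not depend on the scaling between libraries. There were 0.157, 0.138 and 0.137 IL1B reads per IL1RN read in DMSO and 2.36, 1.91 and 2.15 with mebendazole, counted with 1 added to each. The agonist was therefore the scarcer of the pair in every DMSO library and the more abundant in every mebendazole library, which held per kb as well. The mean log2 ratio differed by 3.89, or 14.8-fold (exact permutation test, two-sided, p = 0.1, which is the smallest that 3 against 3 allows; adjusted over 5 ratios p = 0.125). IL18 reads per IL18BP read were 0.542, 0.513 and 0.617 in DMSO and 4.15, 3.03 and 4.20 with mebendazole, a 6.75-fold difference with the same p of the exact test. These are ratios of reads, and the longest annotated IL18BP transcript is 4080 bases against 1147 for IL18. Per kb of these longest transcripts, IL18 was already the more abundant in DMSO. A count per gene does not say which transcripts were present, so whether the order of the 2 changed is not settled.

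Other ratios shifted less. IL1A over IL1B was lower with mebendazole by 1.27 on the log2 scale with 1 added to each count (exact permutation p = 0.1). With 0.5 added the difference was -1.02, and without pair 3, with 1 added, it was -0.80. The DMSO libraries held only 2, 1 and 6 IL1A reads, so both the added count and replicate 3 set much of that size. A fall of this ratio is therefore not established. IL1RAP over IL1R2 differed by -1.13 on the log2 scale with 1 added (exact permutation p = 0.1), and the groups did not overlap. With 0.5 added the difference was -1.41, so its size is poorly determined on 5 IL1R2 reads in DMSO. For IL1R1 over IL1R2 the groups overlapped. Its mean log2 ratio was 5.38 ± 0.469 in DMSO and 5.61 ± 0.419 with mebendazole (SD, n = 3, exact permutation p = 0.5), and 5 decoy reads in DMSO leave it poorly determined. The ratio with 1 added was higher with mebendazole in all 3 numbered pairs, but with 0.5 added the mean log2 difference was -0.042.

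**Figure D3:**
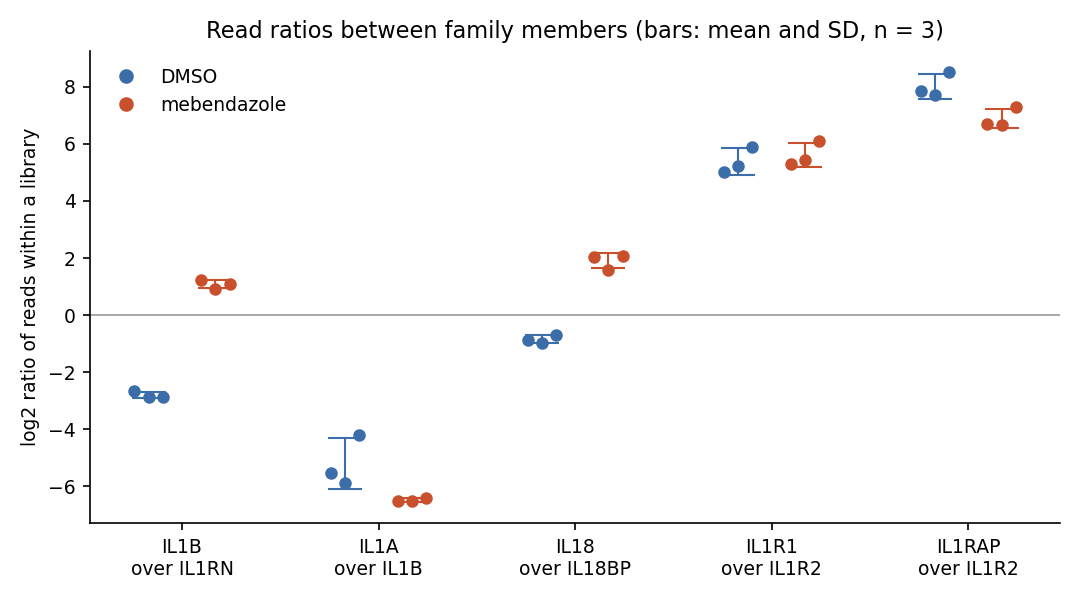
Log2 ratio of reads, with 1 added to each count, between pairs of members in every library, with mean and SD bars (DMSO blue, mebendazole orange, n = 3 per group). IL1B over IL1RN and IL18 over IL18BP lie below 0 in all DMSO libraries and above 0 in all mebendazole libraries, whereas IL1R1 over IL1R2 overlaps. The ratios are not corrected for transcript length.

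Most ligand genes of the family lie side by side on chromosome 2, and so do most receptor genes at another place on it. In the ligand cluster the order is IL1A, IL1B, IL37, IL36G, IL36A, IL36B, IL36RN, IL1F10 and IL1RN. Strong rises were seen at both ends, for IL1A and IL1B and for IL1RN. The genes between them, mostly interleukin 36 cytokines of epithelium and their antagonist IL36RN, had few reads or none. IL36B had 0 reads in DMSO and 19 with mebendazole, at least 7.46-fold higher against a floor of 3 counts over the group. IL36RN had 0 and 16 reads (at least 6.29-fold higher) and IL36G 0 and 8 (at least 3.14-fold higher). These 3 failed the filter on low counts, and edgeR called them higher when every gene with a read was tested (adjusted p = 1.61e-04, 7.32e-04 and 0.0295 in that order). That fit called 11760 of 18546 genes, 5802 of them higher. Its adjusted p for IL1A was 4.24e-74 in edgeR, against 5.06e-25 in the main fit. With 8 to 19 reads per gene, these 3 calls are weaker evidence than calls of the main fit. IL37 had 1 read per group, and IL36A and IL1F10 had 0.

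In the receptor cluster the order is IL1R2, IL1R1, IL1RL2, IL1RL1, IL18R1 and IL18RAP. The 2 receptors of interleukin 1 rose, and the genes after them did not pass the test or were hardly read. IL18R1, the ligand-binding chain for interleukin 18, had 1.05, 1.29 and 1.88 CPM in DMSO and 0.992, 0.690 and 2.12 CPM with mebendazole, with overlapping groups (log2 fold change -0.15, SE 0.29, adjusted p = 0.637 in edgeR). IL18RAP, its partner, had 0.823 ± 0.244 and 0.776 ± 0.223 CPM (log2 fold change -0.10, SE 0.37, adjusted p = 0.812 in edgeR). At 31 to 67 reads per group these values do not show that the chains were equal. IL1RL2, the receptor of interleukin 36, had 1 and 3 reads.

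**Figure D4:**
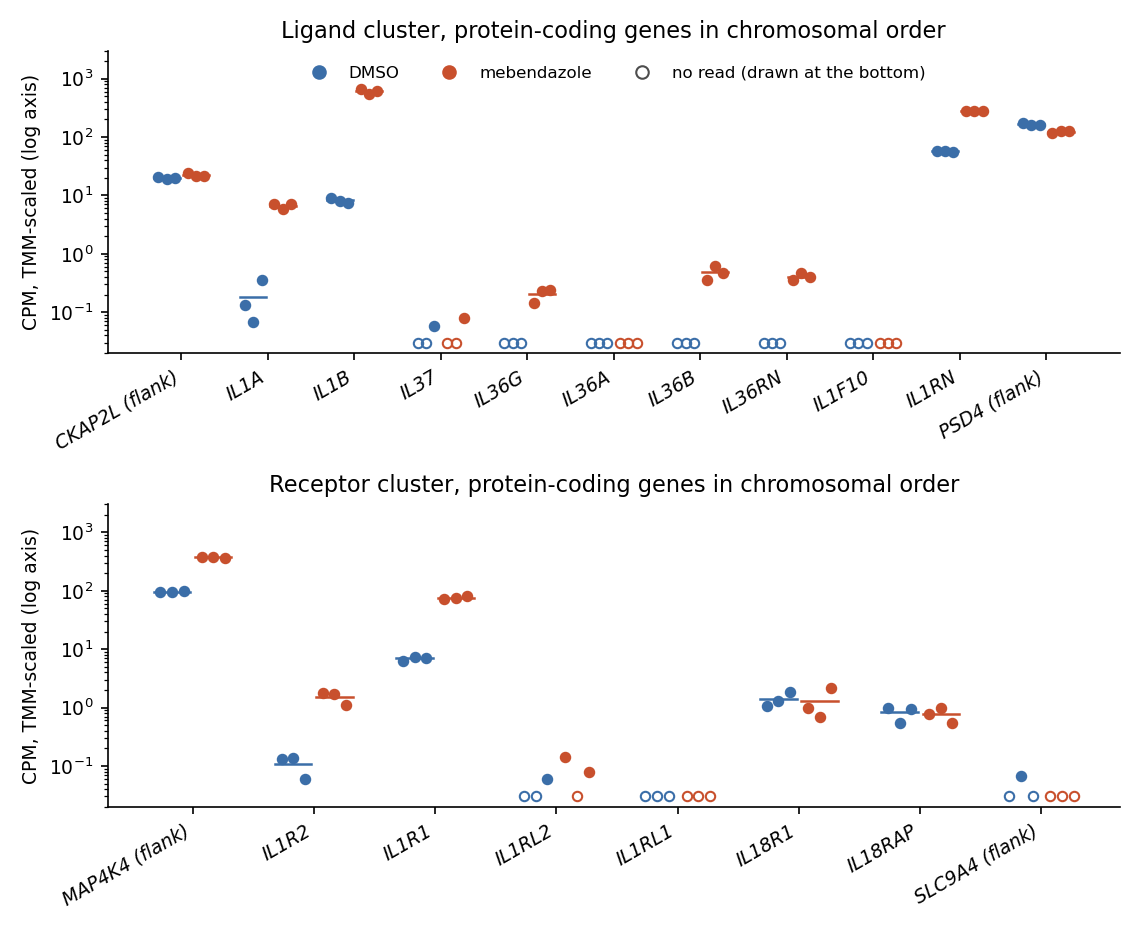
Level in every library of the protein-coding genes of the ligand and receptor clusters, in chromosomal order and not to distance, in TMM-scaled CPM on a log axis, with the nearest coding gene on each side (flank). Lines are means, drawn where every library had a read. IL1A, IL1B and IL1RN are separated between groups while the genes between them are near or at 0 reads, and IL1R2 and IL1R1 are separated while IL18R1 and IL18RAP overlap.

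Elsewhere in the genome, SIGIRR, an inhibitory receptor of the family, measured 17.1 ± 0.858 CPM in DMSO and 13.7 ± 1.44 CPM with mebendazole (log2 fold change -0.32, SE 0.09, adjusted p = 9.85e-04 in edgeR), a call that DESeq2 did not make (adjusted p = 0.0726). IL1RAPL1 had 0 reads and IL1RAPL2 had 1 in each group. Of these 12 further family genes, 3 were tested, 1 was called lower and 0 higher.

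Of 16 genes that carry the signal from the receptor, 10 were called higher and 3 lower, with a median log2 fold change of 0.37 against -0.03 over all tested genes. The share called was close to the 82.3% of all tested genes. IRAK2, a kinase of the receptor complex, rose from 6.78 ± 0.577 to 224 ± 12.9 CPM, and PELI1, a ubiquitin ligase that modifies IRAK proteins, rose 3.68-fold. TAB1, an activator of the kinase TAK1, and IRAK3, an inhibitor of IRAK signalling, fell with log2 fold changes of -1.18 and -1.0, and the adaptor MYD88 fell from 80.2 ± 0.647 to 48.9 ± 1.88 CPM (log2 fold change -0.71). With library totals in place of TMM, 8 of the 16 were called higher and 6 lower. Genes that interleukin 1 is known to induce through NF-kB, some of which many other stimuli induce too, were called higher in 22 of 22 tested, with 0 lower, and a median of 3.32. Of all tested genes, 40.6% were called higher, but the list was chosen with earlier results of these data known. CXCL3 and LIF passed the filter through the mebendazole libraries, and the other 20 were all called higher. CCL20, a chemokine for lymphocytes and dendritic cells, rose by 7.88 on the log2 scale, IL8 (CXCL8) by 7.01 and CXCL2 by 5.21. Of the others on this list, IL6 had no read, and CSF2 (0 and 4 reads) and CSF3 (0 and 8 reads) were not tested. IRAK2 is on both lists, and ZC3H12A is both here and among the genes for mRNA-binding proteins.

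Genes for processing and release of the ligands went both ways, with 7 of 19 tested called higher and 7 lower (median 0.02), shares near the 40.6% and 41.7% of all tested genes. PYCARD, which links inflammasome sensors to caspase 1, was lower with mebendazole, at 23.9 ± 3.00 against 94.2 ± 5.60 CPM, and so was the protease gene CASP1, at 35.1 ± 0.462 against 69.6 ± 0.896 CPM. Thus RNA of the IL1B precursor and of its protease moved in opposite directions. NINJ1, which ruptures the membrane of dying cells, rose 6.34-fold, P2RX7, the ATP-gated channel that triggers release, 4.66-fold, and the channel gene PANX1 3.87-fold. NLRP3, the sensor, differed by 0.29 on the log2 scale (adjusted p = 6.06e-10 in edgeR), but with library totals by 0.05 (adjusted p = 0.253). With library totals 6 were called higher and 11 lower. Of 9 genes for proteins that bind cytokine mRNAs, 5 were called higher and 3 lower, or 4 and 4 with library totals, which does not set the list apart from all tested genes, of which 82.3% were called. ZC3H12A, a nuclease that degrades cytokine mRNAs, rose 7.11-fold, RC3H2 2.14-fold and ZFP36, which binds the ATTTA pentamer, 2.06-fold, whereas ZFP36L2 of the same family fell with a log2 fold change of -1.15.

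**Figure D5:**
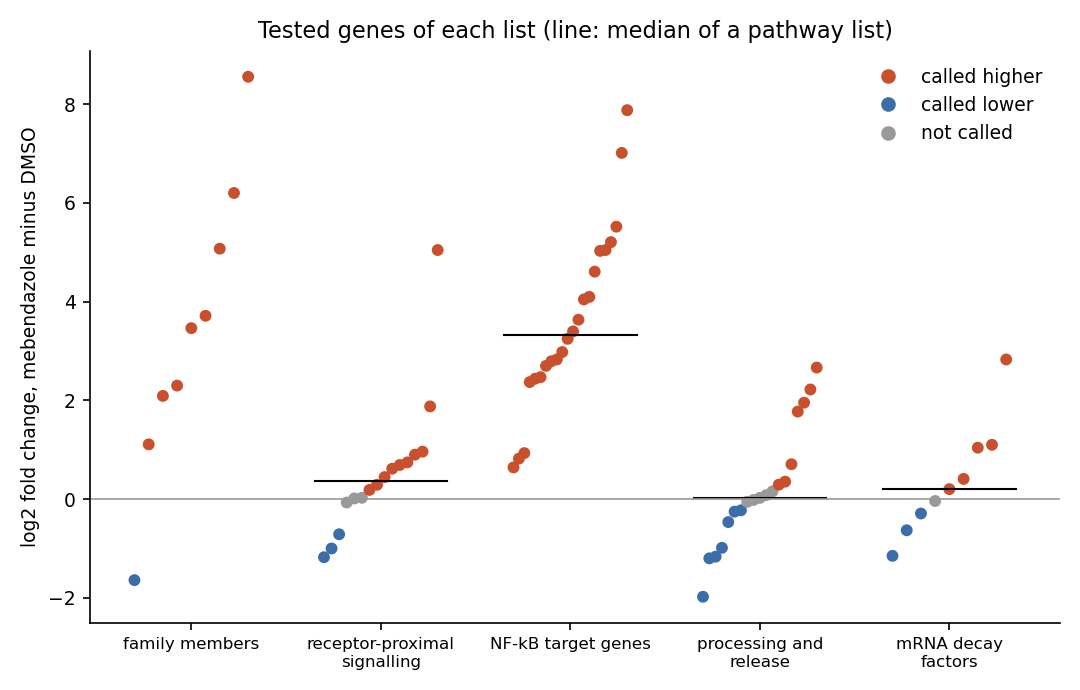
Log2 fold change (mebendazole minus DMSO) of every tested gene of the family and of 4 related lists, each point a gene, ordered by value within its list, with the median of each pathway list as a line. Orange points were called higher, blue points lower and grey points neither. The 22 tested NF-kB targets are all called higher, while the release genes split into 7 higher and 7 lower. The lists were chosen with earlier results of these data known.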

How the data were processed

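RNA of 6 THP-1 libraries was prepared with TruSeq RNA v2, per the labels' protocols, which keeps no strand information. The authors deposited 1 table of raw counts by gene symbol. STAR, bedtools, HTSeq, DESeq2 and hg19 are named without roles, per the submitters' processing notes. The annotation and the strand setting of the counting were not given in the sources at hand.

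The whole table was fitted in edgeR 4.0.16 (R 4.3.3) after filterByExpr with a minimum count of 10, with TMM factors, the labelled pair as a block and the two-sided quasi-likelihood F test. Genes with an adjusted p (Benjamini-Hochberg) under 0.05 were called. SE is the absolute log2 fold change over the square root of F, and spread was shared across genes (prior degrees of freedom 61, residual 2). Members and lists were chosen with earlier results of these data known. Named were all members and other family genes, the 4 called genes of each pathway list with the largest change at a mean CPM of 10 or more, CASP1, PYCARD and NLRP3, and the genes nearest to IL1B and IL1A. Flanking genes, MYD88, CXCL3, LIF, MNDA, CD8A, NCAM1, TPSB2, markers beside IL33 and NUMA1 were named after their values were seen. Lengths and 3′ UTRs came from GENCODE 29 and promoters from RefSeq. Alternatives were other scalings, DESeq2 1.42.0, other filters, no block and leaving out each pair. The fit was tested on simulated data.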

Additional observations from a re-analysis of the deposited data

How the results depend on the processing

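The 9 tested members held their direction and call throughout, in all 79 alternative values computed for them. For IL33, IL1A and IL1R2, which passed the filter through the mebendazole libraries, a difference was built into their selection. IL1A and IL1R2 were not tested when a mean of 10 CPM was required. The log2 fold change of IL33 ranged from 8.0 to 11.7 and that of IL1A from 4.81 to 5.90, both with few control reads, whereas IL1B stayed within 5.96 to 6.27 and IL18BP within -1.89 to -1.55. With library totals in place of TMM the median gene moved from -0.03 to -0.27, the share of called genes that were higher from 49.3% to 36.4%, the signalling genes called lower from 3 to 6 and the release genes called lower from 7 to 11. Under that scaling NLRP3 was at 0.05 (adjusted p = 0.253). Among the 12 further family genes, DESeq2 called 0 lower, since SIGIRR at -0.30 missed the threshold, against 1 in edgeR, and 3 were called higher with no filter, and the cause was not tested. The uncalled IL18RAP changed sign without pair 1 (0.04) or pair 3 (0.20) and IL18R1 without pair 2 (0.10), and their ranges with 1 pair left out were -0.51 to 0.20 and -0.46 to 0.10. The log2 ratio of IL1R1 over IL1R2 changed sign with 0.5 added to each count (-0.042).

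With no replicate block, 11118 genes were called against 11192, with 8 members higher and 1 lower, and no call changed among the members, the 3 other tested family genes and the named pathway genes. The correlation of deviations within a pair was -0.0010, 0.061 and 0.016, and 3 of 6 libraries correlated best with their own number. For the ratios, the block gave p = 0.25 in each exact sign-flip test, the smallest that 3 pairs allow. Depth limits IL1RL1, IL37, IL1RL2 and the interleukin 36 genes.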

Other observations

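By distance over the 6 log2 CPM values (0.1 CPM added), the gene most like IL1B in level and change was NT5E, an ectoenzyme that makes adenosine, at 8.56 ± 0.401 CPM in DMSO and 671 ± 24.5 CPM with mebendazole. IL7R, at a distance of 1.40 against 0.41 for NT5E, and CCL22 (7.64 ± 0.223 and 1069 ± 39.6 CPM) came next. The closest to IL1A were RRAD, a small GTPase (0.186 ± 0.113 and 6.45 ± 1.29 CPM), the antisense RNA gene ZMIZ1-AS1 and TNIP3, an inhibitor of NF-kB activation (0.188 ± 0.115 and 6.94 ± 1.71 CPM).

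The coding genes that flank the ligand cluster moved little beside IL1A, IL1B and IL1RN. CKAP2L, a spindle gene next to IL1A, lay at 19.8 ± 0.550 CPM in DMSO and 22.5 ± 1.52 CPM with mebendazole (log2 fold change 0.19), and PSD4, next to IL1RN, at 167 ± 7.19 and 123 ± 6.55 CPM (log2 fold change -0.45). At the receptor cluster, MAP4K4, a kinase gene next to IL1R2, rose from 96.5 ± 1.99 to 373 ± 5.57 CPM (log2 fold change 1.95), and SLC9A4 on the other side had 1 read in DMSO and 0 with mebendazole.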
